A study of Mus musculus with 35 samples.

Results

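A group of 10 subunits of the Polycomb repressive complexes, of the 54446 genes in the deposited table, was followed across mouse epiblasts and the epiblast-like cultures made to model them. They were taken by symbol: Ezh2, Ezh1, Eed, Suz12, Jarid2, Mtf2 and Phf19 of Polycomb repressive complex 2, and Rnf2, Cbx2 and Cbx7 of Polycomb repressive complex 1. Each symbol stood on 1 line of the table, so all 10 were found. Expression was given as TPM, the transcript level per length scaled to the same total in each library.

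The study asked which stage of the embryo a 3D culture of epiblast stem cells (EpiSCs) resembles. Of its 35 samples, the 27 bulk RNA libraries were used, 3 for each of 9 groups. The 12 culture libraries were all labelled wild-type. ESC-derived 3D EpiSCs were made from embryonic stem cells (ESCs) grown as spheroids in Matrigel with FGF2, ActivinA, the Wnt inhibitor XAV and the BMP antagonist Noggin. Embryo-derived 3D EpiSCs were started from E5.5 epiblasts and kept in the same medium. Conventional 2D EpiSCs, converted from ESCs according to their label, were grown flat in FGF2 and ActivinA without the other factors. Epiblast-like cells (EpiLCs) were ESCs given FGF2 and ActivinA for 48 h. Since the methods also describe 2D lines started from embryos, the origin of the 2D libraries rests on their label alone. Medium and dimension changed together between 2D and 3D EpiSCs. If the label holds, origin and genetic background changed as well between embryo-derived 3D EpiSCs and each of the other cultures, so these cannot be told apart there. The 15 embryo libraries, 3 for each day of development from E3.5 to E7.5, were labelled CD-1, wild-type and untreated. Embryos came from matings of CD1 or of Pdgfrα:H2B-GFP reporter mice, their sex was not determined, and several were pooled for each library. At E3.5 the inner cell mass was cut out with a laser, and at E4.5 GFP-negative epiblast cells were picked by hand after the trophectoderm had been lysed. From E5.5 on, the epiblast was freed by hand of visceral endoderm and extra-embryonic ectoderm.

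Polycomb repressive complex 2 (PRC2) places repressive methyl marks on histone H3, and Polycomb repressive complex 1 (PRC1) places ubiquitin on histone H2A and compacts chromatin. PRC2 is built on a catalytic EZH protein, EED and SUZ12, and its accessory proteins help to bring it to CpG-rich promoters. In pluripotent cells both complexes keep developmental regulators silent until lineages form, and embryos that lack a core subunit fail around gastrulation.

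Some facts on the libraries touch the results. Embryo and culture libraries were made with different kits, from ribosome-depleted total RNA and from poly-A RNA respectively, so both sets are given side by side and their difference cannot be told apart from that of the kits. RNA of E3.5 and E4.5 was fragmented for 6 min at 85 °C and that of later stages for 4 min at 94 °C, so the step from E4.5 to E5.5 also holds that change. Markers of other cells moved with stage. A list of 7 trophectoderm genes summed to 3112 to 3174 TPM at E3.5, 2746 to 2930 at E4.5, 332 to 364 at E5.5, 403 to 454 at E6.5 and 879 to 925 at E7.5, with 6 or 7 of the 7 above 2 TPM at each stage. Most of this sum was Krt18 and Krt8, with means of 1682 and 999 TPM at E3.5. The mean of Cdx2 was 161 TPM at E3.5, 23.7 at E4.5, 2.86 at E5.5, 5.27 at E6.5 and 56.7 at E7.5. From E3.5 to E4.5 Gata3 fell with Cdx2, from 212 to 87.8 TPM. Over that step Elf5 rose from 49.7 to 127 TPM, Tfap2c from 39.8 to 122 and Hand1 from 1.17 to 29.6. A list of 8 endoderm genes summed to 385 to 391 TPM at E3.5, 144 to 169 at E4.5, 678 to 734 at E5.5 and 1104 to 1153 at the later stages, with 6, 5, 8, 8 and 8 of the 8 above 2 TPM in order of stage. Its members did not move together: from E3.5 to E5.5 the mean of Gata6 went from 118 to 8.01 TPM, of Sox17 from 83.4 to 13.7 and of Gata4 from 91.9 to 29.8, while Afp went from 0 to 81.0 TPM and Ttr from 0 to 84.8. The 6 epiblast markers summed to 1123 to 1159 TPM at E3.5, 915 to 939 at E4.5, 3051 to 3230 at E5.5, 2452 to 2815 at E6.5 and 813 to 854 at E7.5, with 5 of the 6 above 2 TPM at E3.5 and all 6 later. The 4 naive markers went from 551 to 560 TPM at E3.5 and 344 to 355 at E4.5 to 12.7 to 32.6 at the later stages. The 6 genes of streak and mesoderm summed to 102 to 108 TPM at E5.5, 307 to 394 at E6.5 and 132 to 142 at E7.5, and to 131 to 185 at the stages before. In order of stage 3, 3, 5, 6 and 5 of the 6 were above 2 TPM. From E6.5 to E7.5 the mean of T went from 29.8 to 96.5 TPM, while Eomes went from 160 to 4.10, Mixl1 from 53.7 to 5.33 and Mesp1 from 57.3 to 14.1. Snai1 and Lefty2 fell as well. Eomes held most of the sum at E3.5 and E4.5, with means of 99.4 and 154 TPM. The part of such cells in the levels below was not tested, and in bulk RNA fewer cells of a type and less RNA per cell cannot be told apart. These lists moved with the culture as well. The trophectoderm list summed to 42.7 to 63.3 TPM in EpiLCs, 564 to 724 in 2D EpiSCs, 242 to 361 in ESC-derived and 186 to 209 in embryo-derived 3D EpiSCs, with 2, 4, 2 and 2 of its 7 genes above 2 TPM and Cdx2 below 0.3 TPM in each library. In the same order the endoderm list summed to 1.32 to 1.89, 46.0 to 63.4, 0.675 to 13.4 and 10.5 to 22.0 TPM, with 0, 3, 0 and 2 of its 8 genes above 2 TPM, and the streak and mesoderm list to 43.8 to 53.0, 151 to 163, 80.02 to 93.7 and 121 to 217 TPM. The epiblast list stood at 2989 to 3653 TPM in all 12 culture libraries, the naive list at 6.81 to 53.5 TPM, and a list of 5 fibroblast genes at no more than 22.7 TPM in any of the 27 libraries. The third library of ESC-derived 3D EpiSCs stood apart from the first and the second of that group, with a median absolute difference of 0.271 and 0.269 on the log2 scale, against 0.0610 between those. The first and the second 2D library (0.0649) and the second and the third embryo-derived 3D library (0.0569) were nearly identical as well.

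**Figure D1:**
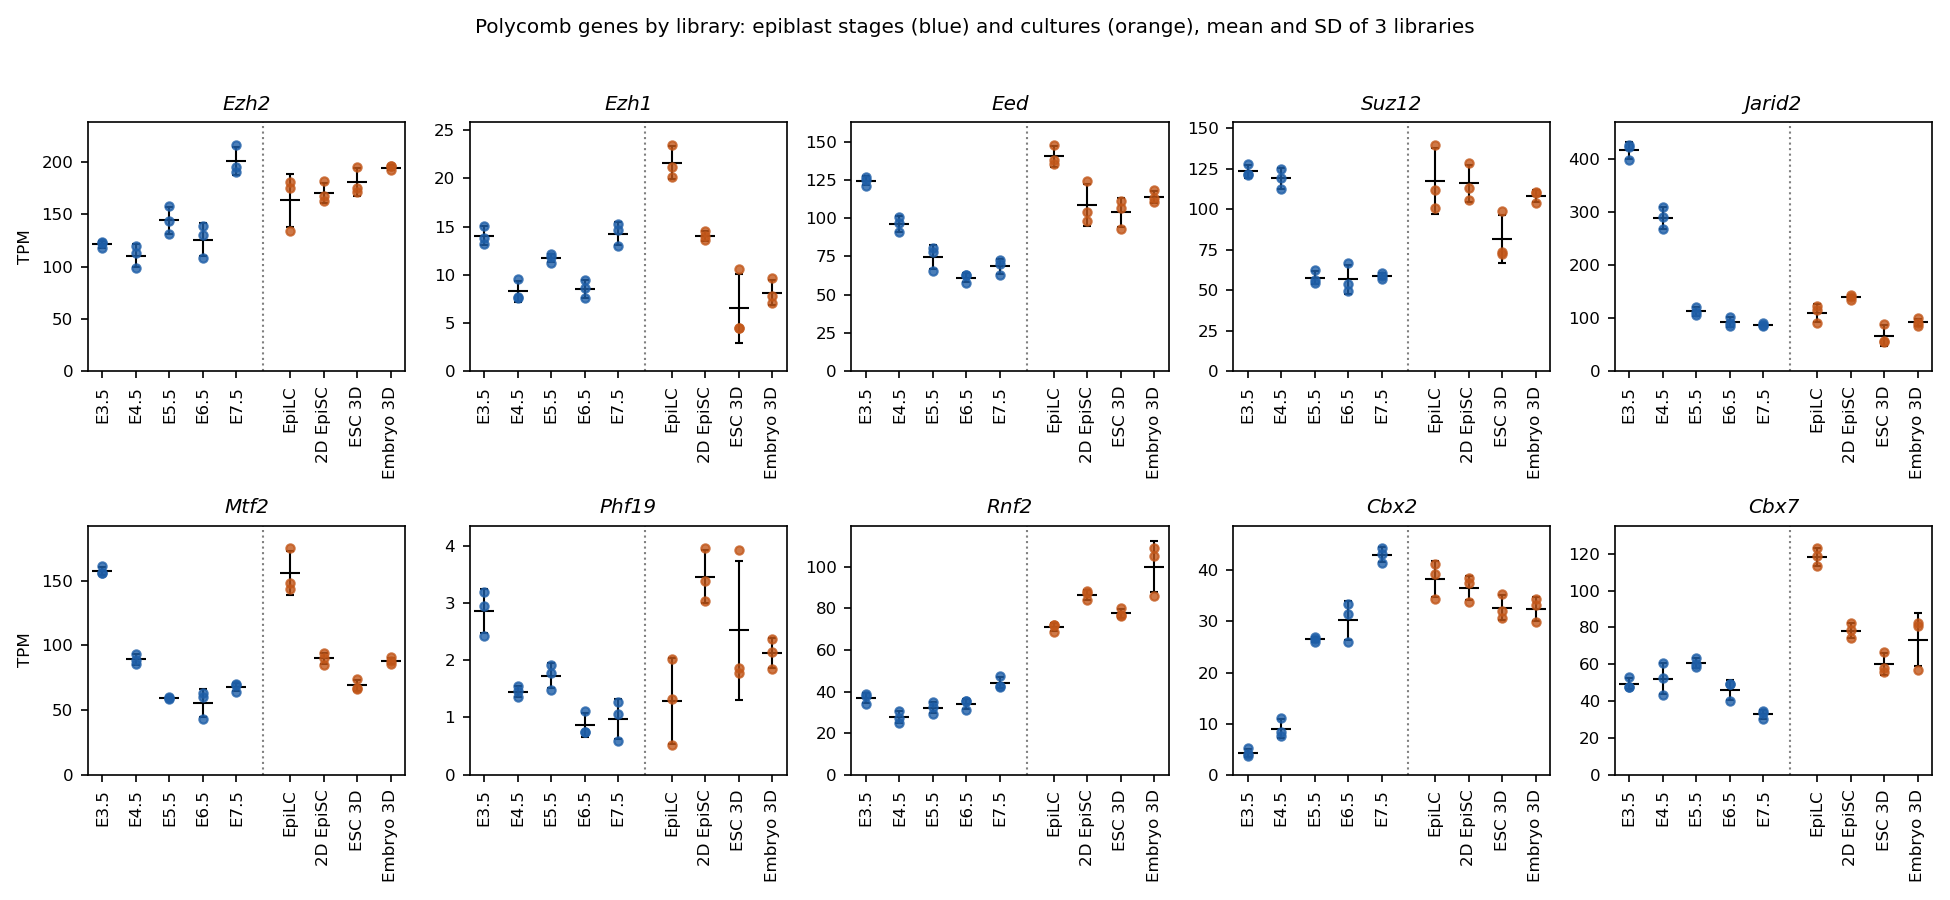
TPM of the 10 Polycomb genes (linear axes from 0, 1 panel a gene) in each library of the 5 epiblast stages (blue) and 4 cultures (orange), with the mean as a bar and the SD of 3 libraries as whiskers. Jarid2 falls from 416 TPM at E3.5 to 87.4 TPM at E7.5 while Cbx2 climbs from 4.27 to 43.0 TPM, and the dotted line parts libraries made with different kits.

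The catalytic subunit Ezh2 (ENSMUSG00000029687.16, mm10 chr6:47530139-47595341, minus strand) is the more active of the methyltransferases that PRC2 can use. In the embryo it was read at 117, 123 and 123 TPM at E3.5, 113, 98.3 and 120 at E4.5, 158, 144 and 131 at E5.5, 130, 139 and 108 at E6.5, and 191, 217 and 196 at E7.5. The 3 libraries of E7.5 lay above the 12 others, and those of E5.5 above all of E3.5 and E4.5. Ezh2 rose by a log2 fold change of 0.68 from E6.5 to E7.5 (SE 0.11, adjusted p = 0.000219) and by 0.72 from E3.5 to E7.5 (SE 0.11, adjusted p = 4.56e-05). The rise of 0.38 from E4.5 to E5.5 (adjusted p = 0.00895) was lost when libraries were rescaled by median-of-ratios factors (0.23, adjusted p = 0.0824).

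In culture Ezh2 had a narrow range, from 134 TPM in an EpiLC library to 196 TPM in 3 of the 3D libraries. EpiLCs held 175, 181 and 134 TPM, 2D EpiSCs 163, 167 and 182, ESC-derived 3D EpiSCs 171, 175 and 196, and embryo-derived 3D EpiSCs 192, 196 and 196. Those of embryo-derived 3D EpiSCs were above each EpiLC and each 2D library, and the other pairs of groups overlapped. No pair of cultures passed the test, and the 95% interval for embryo-derived 3D EpiSCs over EpiLCs ran from 0.011 to 0.52 on the log2 scale (adjusted p = 0.0718). After rescaling, ESC-derived 3D EpiSCs were above 2D EpiSCs (0.30, adjusted p = 0.0419). Ezh2 was the most abundant of the 10 genes in all 4 cultures and at E5.5, E6.5 and E7.5.

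Ezh1 (ENSMUSG00000006920.14, mm10 chr11:101191115-101226463, minus strand) is the less active alternative catalytic subunit, known mostly from cells that divide little. Its level lay far below that of Ezh2. In the embryo it was at 13.8, 15.1 and 13.2 TPM at E3.5, 7.70, 9.51 and 7.63 at E4.5, 12.1, 11.9 and 11.3 at E5.5, 7.61, 9.47 and 8.59 at E6.5, and 15.2, 14.6 and 12.98 at E7.5. The level went down, up, down and up again over the 4 steps, and no neighbouring stages overlapped. The changes were -0.70 (SE 0.10, adjusted p = 6.77e-05), 0.46 (adjusted p = 0.00151), -0.42 (adjusted p = 0.0210) and 0.68 (adjusted p = 0.000126), so that E7.5 differed from E3.5 by 0.020 (95% interval -0.20 to 0.24), or by -0.25 after rescaling (adjusted p = 0.0417). The change from E5.5 to E6.5 was lost in 6 of 22 alternatives, among them leaving out the first or the second E5.5 library or the first or the third E6.5 library, with adjusted p from 0.0125 to 0.162 over all 22.

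Among the cultures Ezh1 was highest in EpiLCs, lower in 2D EpiSCs and lowest in the 3D cultures. It was at 21.2, 23.5 and 20.2 TPM in EpiLCs, 13.6, 14.03 and 14.5 in 2D EpiSCs, 4.47, 4.45 and 10.6 in ESC-derived 3D EpiSCs, and 9.64, 7.08 and 7.75 in embryo-derived 3D EpiSCs. Every EpiLC library was above every 2D library, and every 2D library above every 3D library, while the 3D cultures overlapped. Ezh1 was lower in ESC-derived 3D EpiSCs than in EpiLCs (log2 fold change -1.68, SE 0.24, adjusted p = 0.000172), the largest fitted change of the 10 genes between cultures, and than in 2D EpiSCs (-1.10, SE 0.24, adjusted p = 0.00397). Without the third ESC-derived library these were -2.05 (adjusted p = 3.04e-07) and -1.46 (adjusted p = 6.04e-06), and the comparison of both 3D cultures moved from -0.37 (adjusted p = 0.273) to -0.74 (adjusted p = 0.00117). That setting kept only the first and the second ESC-derived library, nearly identical at 4.47 and 4.45 TPM, so the group's spread rests on those. On averaging near-identical replicates the changes were, in the same order, -1.50 (adjusted p = 0.00349), -0.93 (adjusted p = 0.0716) and -0.25 (adjusted p = 0.707). Embryo-derived 3D EpiSCs were lower than EpiLCs (-1.31, SE 0.24, adjusted p = 0.000692) and than 2D EpiSCs (-0.72, adjusted p = 0.0376), the latter a call lost in 10 of 20 alternatives. The difference of -0.59 between 2D EpiSCs and EpiLCs missed the threshold (adjusted p = 0.0536) and passed it without the third ESC-derived library (adjusted p = 0.000592) and after rescaling (-0.80, adjusted p = 0.00744).

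The ratio of Ezh2 to Ezh1, a description with no test, was 8.62 at E3.5 and 13.3, 12.3, 14.7 and 14.1 at the 4 later stages, taken from group means. In culture it was 7.55 in EpiLCs, 12.2 in 2D EpiSCs, 27.7 in ESC-derived 3D EpiSCs and 23.9 in embryo-derived 3D EpiSCs. By library it lay at 18.4 to 39.4 in ESC-derived and 19.97 to 27.6 in embryo-derived 3D EpiSCs, above each 2D (11.9 to 12.5) and EpiLC library (6.63 to 8.26). The plot of ratios shows both ratios by library.

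**Figure D2:**
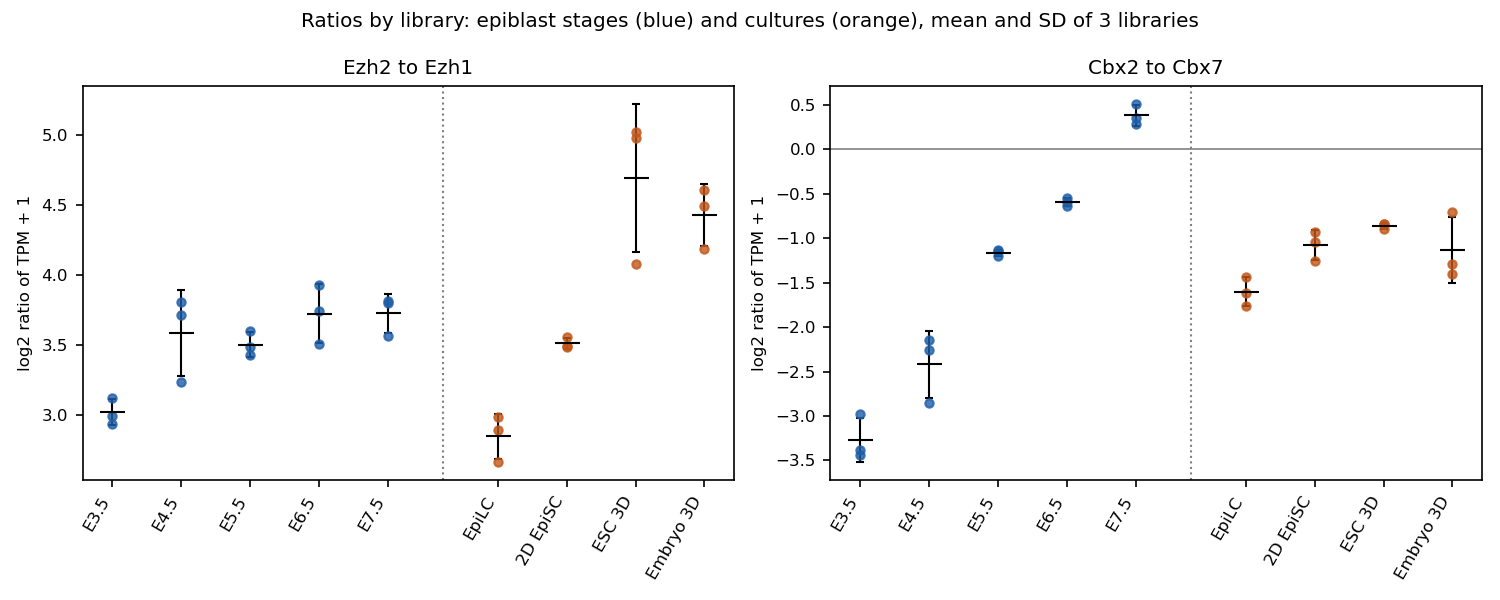
Log2 ratio of Ezh2 to Ezh1 (left) and of Cbx2 to Cbx7 (right), each from TPM + 1, by library in the 5 stages (blue) and 4 cultures (orange), with mean and SD of 3 libraries. Only at E7.5 does Cbx2 exceed Cbx7 (log2 ratio above 0, mean 0.38), and the 6 libraries of 3D EpiSCs have the highest ratios of Ezh2 to Ezh1 in all 27.

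Eed (ENSMUSG00000030619.9, mm10 chr7:89954654-89980983, minus strand) encodes the subunit that binds the methyl mark and stimulates the enzyme. It lay between 121 and 127 TPM at E3.5, 90.7 and 101 at E4.5, 65.6 and 80.4 at E5.5, 57.6 and 63.0 at E6.5, and 62.8 and 72.5 at E7.5. Neighbouring stages did not overlap except E6.5 with E7.5. Eed fell by 0.37 from E3.5 to E4.5 (adjusted p = 0.00394), by 0.36 from E4.5 to E5.5 (adjusted p = 0.00369) and by 0.86 from E3.5 to E7.5 on the log2 scale (SE 0.092, adjusted p = 1.45e-06). In culture EpiLCs, at 135 to 148 TPM, lay above the 9 EpiSC libraries, at 93.1 to 124 TPM. The changes against EpiLCs were -0.37 in 2D EpiSCs (adjusted p = 0.0109), -0.44 in ESC-derived (adjusted p = 0.00621) and -0.30 in embryo-derived 3D EpiSCs (adjusted p = 0.0320). The first was lost in 2 of 20 alternatives, on averaging near-identical replicates (adjusted p = 0.0929) and without the first 2D library, the second in 0 and the last in 6.

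SUZ12 holds the core of PRC2 together and is the platform for its accessory subunits. Its gene (ENSMUSG00000017548.15, mm10 chr11:79993106-80034123, plus strand) was read at 122, 128 and 121 TPM at E3.5 and 113, 125 and 120 at E4.5, then at 54.4, 62.6 and 56.4 at E5.5, 49.7, 66.5 and 53.7 at E6.5, and 57.1, 59.0 and 60.8 at E7.5. The 6 libraries of E3.5 and E4.5 stood apart from the 9 later ones, with nothing between 66.5 and 113 TPM. Nearly all of the change fell on 1 step: -1.03 from E4.5 to E5.5 (SE 0.10, adjusted p = 1.08e-06), against -0.055 before it and -0.037 and 0.067 after it, none of which passed the test. RNA fragmentation changed at that same step, so stage and fragmentation cannot be told apart there. The trophectoderm list fell at that step as well, and its part was not tested. After rescaling, the last step was -0.26 (adjusted p = 0.0316).

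In culture Suz12 was at 112, 101 and 140 TPM in EpiLCs, 106, 113 and 129 in 2D EpiSCs, 73.7, 72.6 and 98.7 in ESC-derived 3D EpiSCs and 110, 104 and 110 in embryo-derived 3D EpiSCs. Each ESC-derived 3D library lay below the 9 others. The difference was -0.52 against EpiLCs (SE 0.15, adjusted p = 0.0128), -0.51 against 2D EpiSCs (SE 0.15, adjusted p = 0.0155) and -0.41 against embryo-derived 3D EpiSCs (adjusted p = 0.0647). The first 2 calls were each lost in 5 of 20 alternatives, the second among them on rescaling (-0.29, adjusted p = 0.0903). Without the third ESC-derived library the last difference was -0.56 (adjusted p = 0.00871), and on averaging near-identical replicates it was -0.35 (adjusted p = 0.420).

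Jarid2 (ENSMUSG00000038518.15, mm10 chr13:44729474-44921643, plus strand) encodes the accessory subunit that defines the PRC2.2 form and helps to recruit the complex. It was the most abundant of the 10 genes at E3.5 and E4.5, with 398, 427 and 422 TPM and with 290, 268 and 309 TPM. It then stood at 122, 110 and 105 TPM at E5.5, 89.8, 103 and 85.9 at E6.5, and 86.7, 90.02 and 85.4 at E7.5. The first 4 stages did not overlap. The change was -0.52 from E3.5 to E4.5 (SE 0.090, adjusted p = 0.000257), -1.36 from E4.5 to E5.5 (SE 0.090, adjusted p = 1.99e-08) and -2.24 from E3.5 to E7.5 (SE 0.090, adjusted p = 4.35e-11), a 4.72-fold fall on the scale of TPM + 1 and the largest of the 10 genes. Neither later step passed the test, although after rescaling E7.5 was lower than E6.5 (-0.42, adjusted p = 0.00198).

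In culture the order of Jarid2 was 2D EpiSCs at 139, 133 and 144 TPM, EpiLCs at 115, 91.1 and 123, embryo-derived 3D EpiSCs at 90.1, 85.8 and 99.2, and ESC-derived 3D EpiSCs at 57.2, 54.6 and 89.1. The 2D libraries were above all 9 others, and the remaining neighbours overlapped except that ESC-derived 3D EpiSCs lay below every EpiLC library. Against 2D EpiSCs, Jarid2 was lower in ESC-derived (-1.08, SE 0.17, adjusted p = 0.000651) and in embryo-derived 3D EpiSCs (-0.60, SE 0.17, adjusted p = 0.0210), the second lost in 4 of 20 alternatives. Against EpiLCs it was -0.73 in ESC-derived 3D EpiSCs (adjusted p = 0.00501), and the difference of 0.35 for 2D EpiSCs did not pass (adjusted p = 0.103). The latter passed without the third ESC-derived library (adjusted p = 0.0186), and embryo-derived 3D EpiSCs were called lower than EpiLCs on rescaling (-0.38, adjusted p = 0.0435).

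Mtf2 and Phf19 encode Polycomb-like proteins, which bind unmethylated CpG-rich DNA and define the PRC2.1 form. Mtf2 (ENSMUSG00000029267.17, mm10 chr5:108065674-108109004, plus strand) was at 156, 161 and 156 TPM at E3.5 and 88.6, 85.3 and 93.6 at E4.5, then at 58.3, 59.8 and 59.0 at E5.5, 43.0, 63.5 and 60.2 at E6.5, and 69.0, 64.1 and 70.5 at E7.5. As with Jarid2, E3.5, E4.5 and E5.5 did not overlap. Mtf2 changed by -0.82 (SE 0.12, adjusted p = 5.51e-05), then by -0.59 (SE 0.12, adjusted p = 0.000682), and by -1.21 from E3.5 to E7.5 (adjusted p = 5.06e-07). The rise of 0.30 from E6.5 to E7.5 (adjusted p = 0.0440) was lost in 13 of 22 alternatives and turned to -0.028 on rescaling.

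Among the cultures EpiLCs had the most Mtf2, with 149, 143 and 175 TPM, a range that no EpiSC library reached. The 2D EpiSCs held 85.1, 90.4 and 94.2 TPM, ESC-derived 3D EpiSCs 66.0, 67.3 and 73.8, and embryo-derived 3D EpiSCs 87.9, 85.7 and 90.7. All 3 EpiSC cultures were lower than EpiLCs, with log2 fold changes of -0.78 in 2D (SE 0.097, adjusted p = 3.51e-05), -1.16 in ESC-derived 3D (SE 0.097, adjusted p = 2.38e-06) and -0.81 in embryo-derived 3D EpiSCs (SE 0.097, adjusted p = 2.88e-05), in all 20 alternatives. ESC-derived 3D EpiSCs were also lower than 2D EpiSCs (-0.38, adjusted p = 0.00905), which rescaling reduced to -0.16 (adjusted p = 0.200). That call was also lost on averaging near-identical replicates (-0.37, adjusted p = 0.125).

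Phf19 (ENSMUSG00000026873.9, mm10 chr2:34893757-34914026, minus strand) was the least abundant of the 10 genes in all 9 groups. In the embryo it lay between 2.43 and 3.199 TPM at E3.5 and at most 1.92 TPM later. It passed the filter of 2 TPM in 3 libraries only through E3.5, so a fall from E3.5 was built into the filter and is given no weight. The step from E5.5 to E6.5 was -0.55 (adjusted p = 0.0186) and was lost in 5 of 22 alternatives. In culture it was at 2.02, 1.32 and 0.51 TPM in EpiLCs, 3.04, 3.39 and 3.96 in 2D EpiSCs, 1.86, 1.78 and 3.93 in ESC-derived and 1.85, 2.38 and 2.15 in embryo-derived 3D EpiSCs. The 2D libraries lay above those of EpiLCs and of embryo-derived 3D EpiSCs. Phf19 was higher in 2D EpiSCs than in EpiLCs by 1.02 (SE 0.25, adjusted p = 0.00467), in all 20 alternatives, and no other pair passed. On rescaling, ESC-derived 3D EpiSCs were also above EpiLCs (0.64, adjusted p = 0.0429).

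Suz12 and Mtf2 fell from E4.5 to E5.5, as did Jarid2 and Eed, whereas Ezh1 rose, as did Ezh2 and Cbx2. As examples, the 250 bases upstream of the RefSeq starts of Suz12, Mtf2 and Ezh1 are shown side by side (GRCm38.p6, each on the strand of its gene). Capitals mark the letters TTTCCCGC, a form of the binding motif of E2F factors, wherever they or TTTGGCGC stood on either strand. They lie at chr11:79992856-79993105 for Suz12, chr5:108065424-108065673 for Mtf2 and chr11:101226464-101226713 for Ezh1.
Suz12: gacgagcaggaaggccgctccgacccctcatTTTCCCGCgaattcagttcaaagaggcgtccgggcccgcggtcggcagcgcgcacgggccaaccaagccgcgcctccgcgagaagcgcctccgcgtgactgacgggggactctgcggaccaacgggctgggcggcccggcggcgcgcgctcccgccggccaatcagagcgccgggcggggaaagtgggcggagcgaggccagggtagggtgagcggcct
Mtf2: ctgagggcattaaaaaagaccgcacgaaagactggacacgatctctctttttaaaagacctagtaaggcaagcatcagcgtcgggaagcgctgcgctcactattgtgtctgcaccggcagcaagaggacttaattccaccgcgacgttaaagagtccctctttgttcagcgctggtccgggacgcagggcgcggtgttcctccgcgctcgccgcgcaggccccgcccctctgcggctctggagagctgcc
Ezh1: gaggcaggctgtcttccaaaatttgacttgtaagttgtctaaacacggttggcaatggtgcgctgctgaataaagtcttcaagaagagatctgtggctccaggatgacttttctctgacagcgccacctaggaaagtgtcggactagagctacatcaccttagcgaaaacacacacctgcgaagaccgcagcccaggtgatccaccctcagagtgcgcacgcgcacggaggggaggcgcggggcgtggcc
The Suz12 run held 37 CpG pairs, more than 97.8% of the 32851 promoters of this length, whose median was 6. Mtf2 held 23 and Ezh1 14, above 86.7% and 70.6% of promoters. Of the genes not shown, Eed and Jarid2, which also fell, held 12 and 23 (first Jarid2 start), and Ezh2, which also rose, held 23. A link between these counts and the direction of change was not tested. RefSeq promoters were found for 9 of the 10 genes, with a second start for Jarid2 and for Mtf2. None was found for Cbx2, whose rise from E4.5 to E5.5 was the largest of the 10 genes. Among the first starts of the 9 genes, the CpG count ranged from 12 in Eed to 37 in Suz12, above the median in each case. The second start of Jarid2 held 22, and that of Mtf2 held 2, below the median. One of the E2F motifs was found in Suz12, 211 bases before the start, and in Phf19, 200 bases before it, and in 1.3% of all promoters. CCAAT was found in Ezh2 (3 times), Suz12, Cbx7, the first Jarid2 start and the second Mtf2 start, and in 33.8% of all promoters. The GC box GGGCGG was found in Suz12, both Jarid2 starts, the first Mtf2 start, Phf19, Rnf2 and Cbx7, and in 32.7% of all promoters. None of the 9 genes held CCGGAAGT, an ETS motif present in 2.88% of promoters, or the NRF1 motif, present in 0.782%. These are matches of letters on either strand and not bound sites.

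Rnf2 (ENSMUSG00000026484.13, mm10 chr1:151458004-151500955, minus strand) encodes RING1B, the main ubiquitin ligase of PRC1 in early embryos. It was at 34.0 to 38.7 TPM at E3.5, 24.9 to 30.8 at E4.5, 29.3 to 34.9 at E5.5, 31.0 to 35.7 at E6.5 and 42.3 to 47.3 at E7.5, where all 3 libraries lay above the 12 others. The change was -0.40 from E3.5 to E4.5 (SE 0.10, adjusted p = 0.00422). The rise of 0.37 from E6.5 to E7.5 (adjusted p = 0.00804) was reduced by rescaling to 0.042 (adjusted p = 0.773), and that of 0.26 from E3.5 to E7.5 (adjusted p = 0.0344) turned to -0.022 (adjusted p = 0.853).

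In culture Rnf2 was at 72.1, 68.6 and 71.8 TPM in EpiLCs, 83.9, 87.5 and 88.2 in 2D EpiSCs, 76.7, 80.0 and 76.2 in ESC-derived and 86.1, 105 and 109 in embryo-derived 3D EpiSCs. EpiLCs lay below ESC-derived 3D EpiSCs, and these below both other EpiSC cultures, with no overlap. Embryo-derived 3D EpiSCs had more Rnf2 than EpiLCs (0.49, SE 0.096, adjusted p = 0.00122, in all 20 alternatives). The difference between 2D EpiSCs and EpiLCs was 0.28 (adjusted p = 0.0244) and was lost on rescaling (0.061, adjusted p = 0.625), which in turn put embryo-derived 3D above 2D EpiSCs (0.29, adjusted p = 0.0461).

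CBX proteins are the chromodomain subunits by which canonical PRC1 reads the PRC2 mark. CBX7 is known as the main one of embryonic stem cells, and CBX2 rises as they differentiate and can compact chromatin. Cbx2 (ENSMUSG00000025577.7, mm10 chr11:119022962-119031270, plus strand) stood at 3.98, 5.17 and 3.65 TPM at E3.5, 7.53, 8.28 and 11.1 at E4.5, 26.0, 27.04 and 26.5 at E5.5, 33.4, 31.4 and 26.0 at E6.5, and 43.3, 44.4 and 41.5 at E7.5. The stages did not overlap except E5.5 with E6.5. Cbx2 rose by 0.91 from E3.5 to E4.5 (SE 0.14, adjusted p = 8.11e-05), by 1.48 from E4.5 to E5.5 (SE 0.14, adjusted p = 5.66e-07) and by 3.07 from E3.5 to E7.5 (SE 0.14, adjusted p = 1.27e-10), an 8.42-fold rise on the scale of TPM + 1. These 3 calls held in all 22 alternatives. The step of 0.50 from E6.5 to E7.5 (adjusted p = 0.00780) became 0.17 after rescaling (adjusted p = 0.328).

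Cbx2 did not pass the test between any pair of cultures. EpiLCs held 39.3, 34.3 and 41.3 TPM, 2D EpiSCs 37.5, 38.5 and 33.9, ESC-derived 3D EpiSCs 30.7, 32.0 and 35.4, and embryo-derived 3D EpiSCs 34.3, 29.9 and 33.1, and every pair of groups overlapped. The 95% intervals against EpiLCs ran from -0.46 to -0.0066 on the log2 scale in embryo-derived and from -0.45 to 0.0029 in ESC-derived 3D EpiSCs. After rescaling the first of these was called (-0.36, adjusted p = 0.00794), as was 2D EpiSCs against EpiLCs (-0.28, adjusted p = 0.0254). Without the third ESC-derived library, ESC-derived 3D EpiSCs were called lower than EpiLCs (-0.28, adjusted p = 0.0482). On averaging near-identical replicates this difference was -0.19 (adjusted p = 0.317).

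Cbx7 (ENSMUSG00000053411.16, mm10 chr15:79915807-79971119, minus strand) moved later in the embryo and the other way. It was at 52.9, 47.8 and 47.5 TPM at E3.5, 60.5, 43.5 and 52.5 at E4.5, 58.4, 63.4 and 60.1 at E5.5, 49.2, 49.3 and 39.8 at E6.5, and 30.0, 34.6 and 33.7 at E7.5. The 3 libraries of E7.5 were the lowest of the 15. The change from E5.5 to E6.5 was -0.39 (adjusted p = 0.0530), that from E6.5 to E7.5 was -0.48 (SE 0.12, adjusted p = 0.00493), and that from E3.5 to E7.5 was -0.58 (SE 0.12, adjusted p = 0.000659). The last 2 held in all 22 alternatives.

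In culture Cbx7 was at 123, 119 and 113 TPM in EpiLCs, 78.4, 74.1 and 82.4 in 2D EpiSCs, 55.8, 57.8 and 66.8 in ESC-derived and 56.6, 80.7 and 82.6 in embryo-derived 3D EpiSCs. EpiLCs lay above all 9 EpiSC libraries. Against EpiLCs the changes were -0.59 in 2D (SE 0.14, adjusted p = 0.00307), -0.97 in ESC-derived 3D (SE 0.14, adjusted p = 0.000161) and -0.70 in embryo-derived 3D EpiSCs (SE 0.14, adjusted p = 0.00106), each in all 20 alternatives. The difference of -0.38 between ESC-derived 3D and 2D EpiSCs (adjusted p = 0.0414) was lost in 9 of 20.

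The ratio of Cbx2 to Cbx7, from group means, was 0.0864 at E3.5, 0.172 at E4.5, 0.438 at E5.5, 0.656 at E6.5 and 1.31 at E7.5. No library of a stage overlapped with those of the next. The cultures were at 0.324 in EpiLCs, 0.468 in 2D EpiSCs, 0.544 in ESC-derived and 0.443 in embryo-derived 3D EpiSCs. Across all 12 culture libraries the ratio ran from 0.289 to 0.607, and in no culture library did Cbx2 exceed Cbx7.

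**Figure D3:**
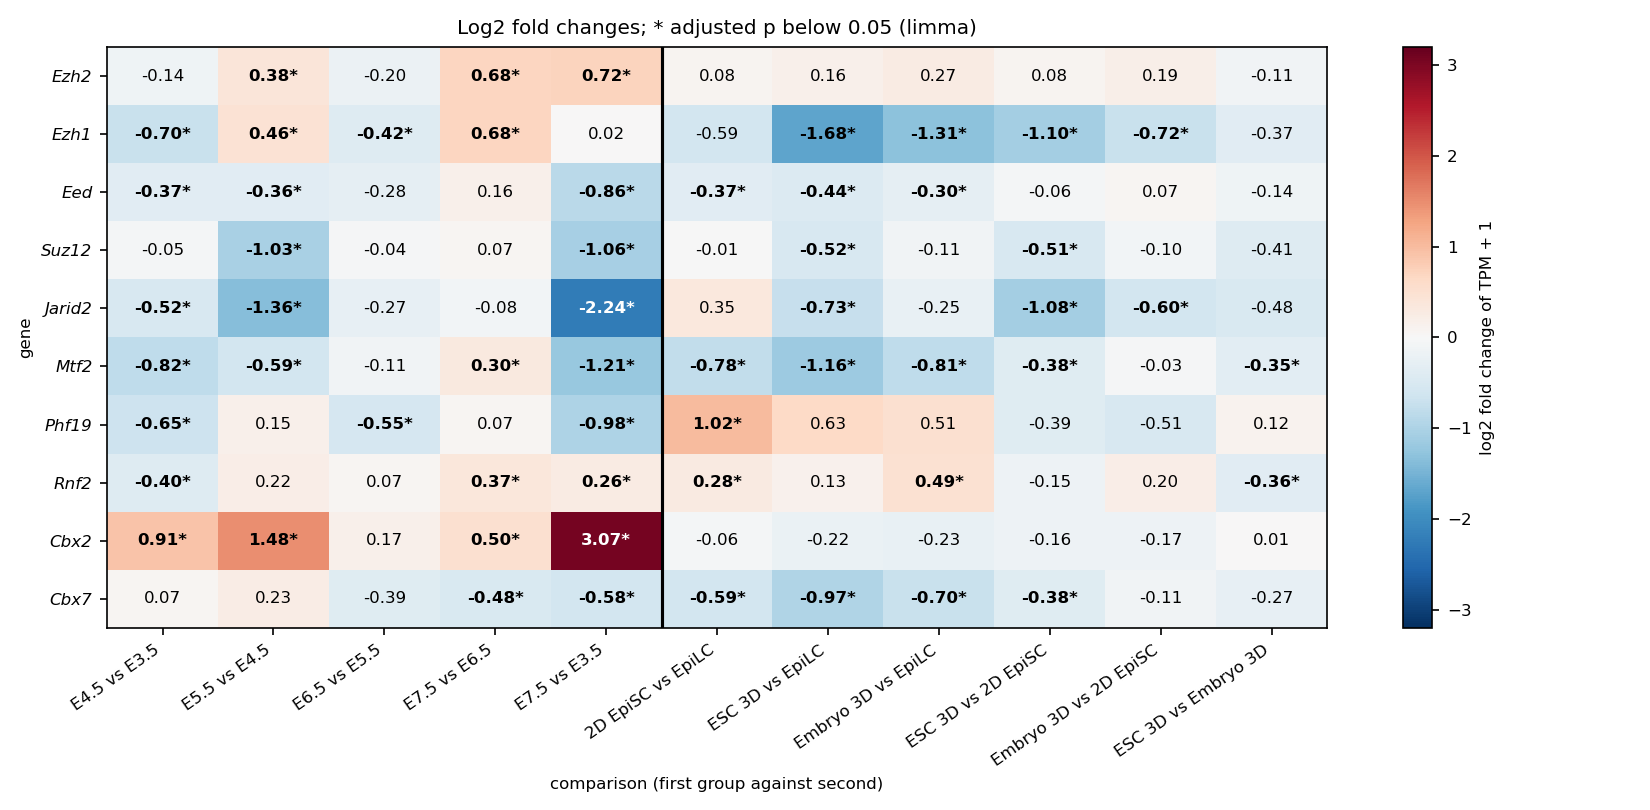
Fitted log2 fold changes (on TPM + 1) of the 10 genes in the 5 comparisons of stages and 6 of cultures, red for higher and blue for lower in the first group, with an asterisk and bold type where the adjusted p was below 0.05. Cbx2 (3.07) and Jarid2 (-2.24) from E3.5 to E7.5 are the extremes, and neither Ezh2 nor Cbx2 is marked between any cultures.

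Counted over the 10 genes, most changed from E3.5 to E7.5, as did most of all genes. At an adjusted p below 0.05, 3 were up at E7.5 and 6 were down, where 49.1% of the 11880 genes tested were up and 25% down, and after rescaling 2 of the 10 were up and 7 down (37.3% and 34.4%). The median log2 fold change was -0.72 over the 10 and 0.30 over all genes. From E3.5 to E4.5, 1 rose and 6 fell (21% and 33.8% of all genes), with medians of -0.39 and -0.10, and after rescaling again 1 and 6 (26.5% and 28.7%). From E4.5 to E5.5, 3 rose and 4 fell (38.9% and 22.8%), with medians of 0.19 and 0.16, or 2 and 4 after rescaling (31.8% and 29.1%). From E5.5 to E6.5, 0 rose and 2 fell (3.89% and 6.95%), with medians of -0.24 and -0.060, and the same counts were found after rescaling (6.03% and 4.46%). From E6.5 to E7.5, 5 rose and 1 fell (46.5% and 6.87%), with medians of 0.23 and 0.31, and after rescaling 2 rose and 3 fell (21.2% and 18.9%). At this last step the epiblast markers also went from 2452 to 2815 TPM down to 813 to 854 TPM, and their part in the changes of the 10 genes was not tested. In an F test over the 5 stages all 10 passed, as did 91.6% of all genes. Phf19 is in these counts only because of its level at E3.5.

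Between cultures most calls of the 10 genes were on the lower side. For 2D EpiSCs over EpiLCs 2 were up and 3 down, where 39.9% and 18.7% of the 11541 genes tested were, and after rescaling 1 was up and 5 down (29.5% and 30.4%). For ESC-derived 3D EpiSCs over EpiLCs 0 were up and 6 down (22.6% and 22.8% of all genes), or 1 and 6 after rescaling (23.1% and 23.6%). For embryo-derived 3D EpiSCs over EpiLCs 1 was up and 4 down (33.7% and 22.3%), or 1 and 6 after rescaling (27.6% and 28.4%), with Cbx2 and Jarid2 added. Set against 2D EpiSCs, the ESC-derived culture had 0 up and 5 down (9.56% and 35.9%), or 1 and 2 after rescaling (21.7% and 23.1%). The embryo-derived one had 0 up and 2 down against 2D EpiSCs (9.83% and 22.9%), or 1 and 2 after rescaling (14.8% and 19.2%). The median log2 fold changes of the 10 genes were -0.036, -0.48, -0.24, -0.38 and -0.10 in that order, beside 0.18, 0.0080, 0.10, -0.21 and -0.077 over all genes. In an F test over the 4 cultures 8 of the 10 passed, against 77% of all genes, and Ezh2 (adjusted p = 0.204) and Cbx2 (adjusted p = 0.125) did not.

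Few of the 10 genes also changed by more than 1 on the log2 scale, the second threshold that was used. From E4.5 to E5.5 these were Cbx2 upwards and Suz12 and Jarid2 downwards (14.9% and 9.47% of all genes), and from E3.5 to E7.5 Cbx2 upwards and Suz12, Mtf2 and Jarid2 downwards (23.8% and 13.4%). None passed it from E3.5 to E4.5 (5.88% up and 11.9% down), from E5.5 to E6.5 (0.715% and 0.48%) or from E6.5 to E7.5 (10.6% and 1.94%). In culture Phf19 passed upwards in 2D EpiSCs over EpiLCs (15.2% up and 5.14% down), Ezh1 and Mtf2 downwards in ESC-derived 3D EpiSCs over EpiLCs (5.33% and 7.11%), and Ezh1 downwards in embryo-derived 3D EpiSCs over EpiLCs (10.5% and 8.28%). Ezh1 and Jarid2 passed downwards in ESC-derived 3D over 2D EpiSCs (0.633% and 9.25%). None passed in embryo-derived 3D over 2D EpiSCs (1.07% and 7.75%) or between the 3D cultures (1.98% each way).

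Between both 3D cultures 2 of the 10 genes were lower in the ESC-derived one and 0 higher, where 14.6% and 6.55% of all genes were. These were Rnf2 (-0.36, adjusted p = 0.0261) and Mtf2 (-0.35, adjusted p = 0.0283), and both were lost on rescaling, when 8.17% of all genes were lower and 9.54% higher. The median over the 10 was -0.31 and that over all genes -0.12. Without the third ESC-derived library 5 were lower, with Ezh1, Suz12 and Jarid2 added, and 0 higher. The shares of all genes also rose without it, to 29.7% lower and 9.8% higher. The 2 ESC-derived libraries left in that fit were nearly identical. On averaging near-identical replicates 0 of the 10 genes were lower and 0 higher. The endoderm list, at 0.675 and 0.723 TPM in the first 2 ESC-derived libraries, summed to 13.4 TPM in the third.

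The other genes of the Polycomb system were taken from a list of 43, with further PRC2 subunits, canonical and variant PRC1, the H2A deubiquitinase complex PR-DUB and the H3 demethylases. Of these, 34 were tested in culture and 35 in the embryo. Shares of all genes stand in brackets as above, first those that rose. From E3.5 to E4.5, 13 rose and 8 fell (21% and 33.8%), or 14 and 5 after rescaling (26.5% and 28.7%). Phc1, a polyhomeotic subunit of canonical PRC1, rose from 38.4 to 143 TPM (log2 fold change 1.87, adjusted p = 3.03e-10), and L3mbtl2 of variant PRC1 rose by 1.04 (adjusted p = 9.95e-06). The demethylase gene Kdm6b fell from 93.6 to 42.1 TPM (-1.13, adjusted p = 2.52e-06), and Ring1, the paralogue of Rnf2, changed by -0.72 (adjusted p = 0.00736).

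At the step from E4.5 to E5.5, where Suz12 and Jarid2 fell, 10 of the wider list rose and 14 fell (38.9% and 22.8%), or 8 and 16 after rescaling (31.8% and 29.1%). Epop, a PRC2.1 subunit, dropped from 348 to 59.0 TPM (-2.54, SE 0.10, adjusted p = 1.37e-10), and Scmh1 of canonical PRC1 from 41.2 to 10.7 TPM (-1.80, adjusted p = 4.79e-05). Pcgf2, a ring-finger partner of RING1B, rose from 19.3 to 44.9 TPM (1.21, adjusted p = 0.000106), and Foxk2 rose by 1.01 (adjusted p = 7.46e-08). From E5.5 to E6.5, 0 rose and 3 fell (3.89% and 6.95%), with Phc1 at -0.54 (adjusted p = 0.000842) and Mga at -0.51 (adjusted p = 0.00400).

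From E6.5 to E7.5, 21 of the wider list rose and 1 fell, where 46.5% of all genes rose and 6.87% fell, which rescaling changed to 6 and 5 (21.2% and 18.9%). Phc3 rose from 4.12 to 11.6 TPM (1.42, adjusted p = 0.00115) and Mbd5, of PR-DUB, from 13.6 to 34.6 TPM (1.28, adjusted p = 3.21e-06), while Phc1 was the 1 that fell (-0.52, adjusted p = 0.000128). Over the whole span from E3.5 to E7.5, 13 rose and 10 fell (49.1% and 25%), or 11 and 16 after rescaling (37.3% and 34.4%). Phc2 rose from 17.4 to 70.0 TPM (1.95, adjusted p = 1.52e-07) and Yaf2 from 11.4 to 40.3 TPM (1.74, adjusted p = 6.52e-08). Epop changed by -1.61 (adjusted p = 6.94e-09) and Fbrsl1 by -0.94 (adjusted p = 1.89e-05).

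In culture rescaling changed the counts of the wider list in some comparisons, and hardly at all for ESC-derived 3D EpiSCs over EpiLCs. For 2D EpiSCs over EpiLCs 15 were up and 5 down (39.9% and 18.7%), or 9 and 11 after rescaling (29.5% and 30.4%). For ESC-derived 3D EpiSCs over EpiLCs 5 were up and 16 down (22.6% and 22.8%), or 5 and 15 after rescaling (23.1% and 23.6%). For embryo-derived ones 11 were up and 10 down (33.7% and 22.3%), or 8 and 14 after rescaling (27.6% and 28.4%). Yaf2, which links RING proteins in variant PRC1, rose against EpiLCs in all 3 EpiSC cultures, by 0.93 in 2D (adjusted p = 1.48e-05), 0.92 in ESC-derived (adjusted p = 2.68e-05) and 1.15 in embryo-derived 3D EpiSCs (adjusted p = 2.66e-06). Foxk2 and Ring1 were also higher than in EpiLCs in all 3, in the same order by 0.70, 0.76 and 0.74 and by 0.41, 0.67 and 0.97. Pcgf6, of a variant PRC1 of germ-cell genes, was lower in all 3, with -1.01 (adjusted p = 5.47e-06), -0.79 (adjusted p = 6.31e-05) and -0.82 (adjusted p = 2.96e-05). Bmi1 was lower in all 3 as well, with -0.64 (adjusted p = 0.00324), -1.09 (adjusted p = 0.000128) and -0.58 (adjusted p = 0.00596). Lcor and Phc1 were called lower in both 3D cultures, Lcor with -1.04 in ESC-derived (adjusted p = 0.000527) and -0.59 in embryo-derived ones (adjusted p = 0.0126) and Phc1 with -0.92 (adjusted p = 0.000431) and -0.62 (adjusted p = 0.00403). In 2D EpiSCs they stood at -0.32 (adjusted p = 0.132) and -0.34 (adjusted p = 0.0702). Mbd5 was called higher in 2D EpiSCs (0.98, adjusted p = 0.00133) and stood at -0.14 in ESC-derived (adjusted p = 0.582) and 0.50 in embryo-derived 3D EpiSCs (adjusted p = 0.0515).

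Set against 2D EpiSCs, the ESC-derived 3D culture had 0 of the 34 up and 22 down, where 9.56% of all genes were up and 35.9% down, but 5 and 12 after rescaling (21.7% and 23.1%), with Mbd5 at -1.13 (adjusted p = 0.00123) and Phc3 at -0.97 (adjusted p = 0.00263). In embryo-derived 3D EpiSCs 1 was higher, Ring1 (0.56, adjusted p = 0.00296), and 3 were lower, among them Pcgf5 (-0.65, adjusted p = 0.00731) and Pcgf3 (-0.56, adjusted p = 0.00342), beside 9.83% and 22.9% of all genes. After rescaling these counts were 4 and 3 (14.8% and 19.2%). Between the 3D cultures 1 was up and 12 were down in the ESC-derived one (6.55% and 14.6%), or 1 and 6 after rescaling (9.54% and 8.17%). Pcgf5 was the higher one (0.57, adjusted p = 0.0238), and Fbrs (-0.77, adjusted p = 0.00112) and Mbd6 (-0.69, adjusted p = 0.00508) fell furthest.

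**Figure D4:**
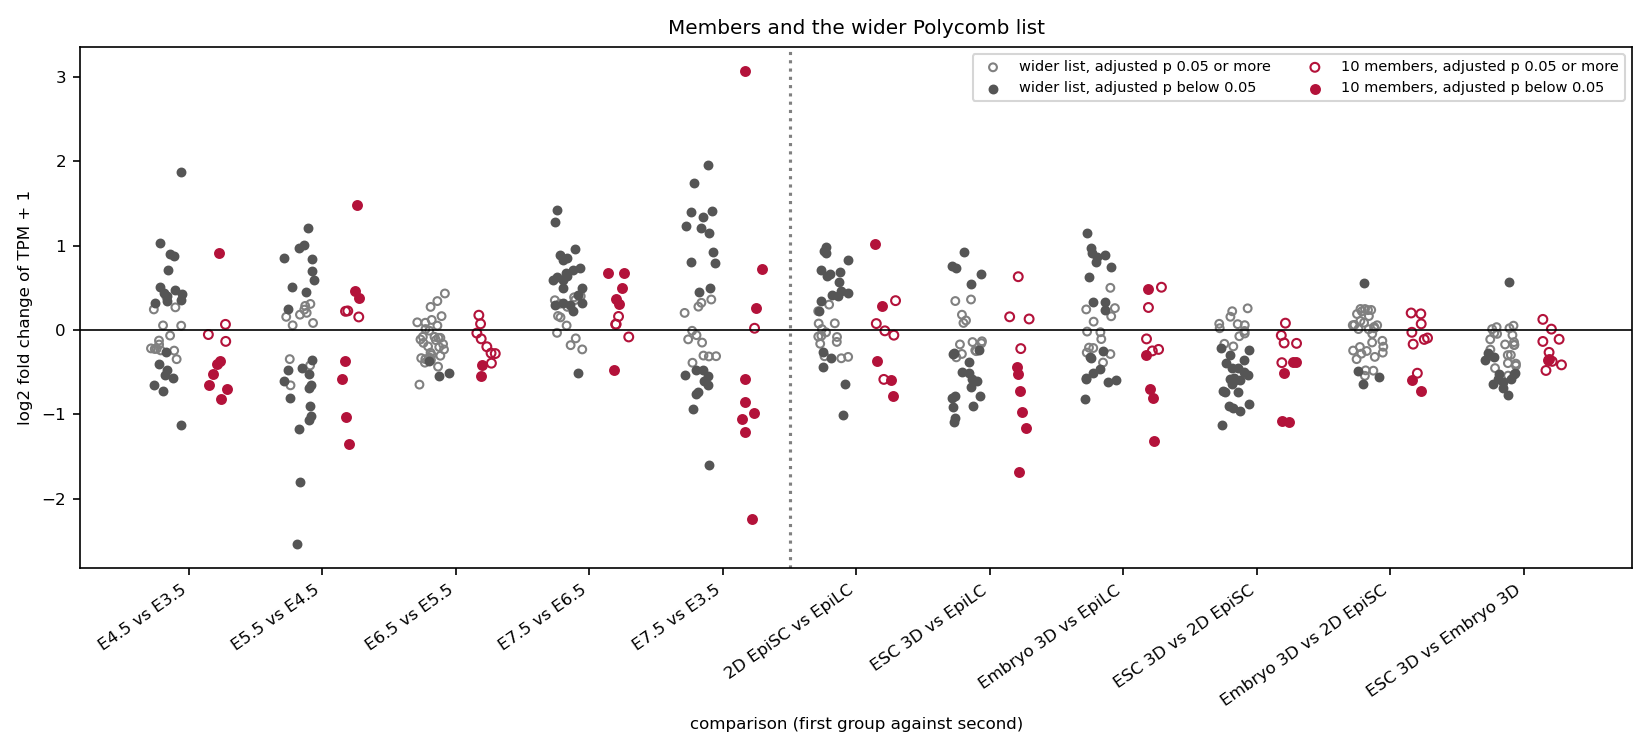
Log2 fold change (TPM + 1) of each gene of the wider Polycomb list (grey) and of the 10 genes (red) in the 5 comparisons of stages and 6 of cultures, filled where the adjusted p was below 0.05. All 22 filled grey points of ESC-derived 3D against 2D EpiSCs lie below 0, and Epop (-2.54) is the lowest point of the step from E4.5 to E5.5.

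The 10 genes were compared with one another and with all other genes over the 12 culture and the 15 embryo libraries, as descriptions only, since libraries of a group share their stage or medium. In the embryo, the pairs with the largest absolute Pearson's r on log2 values, picked from all pairs of the 10 genes, each held Jarid2. The r was -0.98 between Jarid2 and Cbx2, 0.96 between Jarid2 and Suz12 and 0.95 between Jarid2 and Eed. In culture the same pairs had an r of 0.69, 0.88 and 0.21, so the sign turned for Jarid2 and Cbx2. The largest r in culture, 0.92 between Mtf2 and Cbx7, was 0.069 in the embryo. By the smaller r of both sets of libraries, the genes most like Mtf2 of 10888 compared were Znrf2, Inpp5d and Arid5b (Znrf2: 0.97 in culture and in the embryo). Those most like Jarid2 were Plekhm1, Klf9 and Plekhg5, and Suz12 was nearest to Tbc1d23 and Actr2. Rnf2 was nearest to Zfyve9, Ganab and Snx14, and Cbx2 to Tmem2, Zfp111 and Igsf9. The smaller r was 0.83 to 0.84 for the neighbours of Ezh2 (Dguok, Lrig1 and Tmem205), 0.82 to 0.84 for those of Cbx7 (D1Pas1, Cyct and Zfp345) and 0.84 to 0.86 for those of Phf19 (Tjp3, Whamm and Egln1). For Ezh1 the neighbours were Platr25, Map2k6 and Kalrn, and for Eed Gm14444, Crxos and Gm14409. With Spearman's rho, 2 of the 3 names were kept for Jarid2 and for Rnf2, 1 for Phf19 and for Cbx2, and 0 for the other 6 genes.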

How the data were processed

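Reads were trimmed by the authors (cutadapt), mapped to mm10 with STAR and quantified over GENCODE genes by StringTie, and the authors deposited TPM for the 27 libraries. TPM sums to 1000000 in each library and keeps no depth, so no interval based on counts is given. Among StringTie's stated settings (-e) there is no strand option. Reads of Suz12, Rnf2, Phf19, Mtf2, Ezh2, Eed, Jarid2 and Cbx7, which overlap other genes, may therefore be shared. Lines of 1 identifier were summed and empty cells counted as 0.

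The authors' test needs counts, so limma 3.58.1 (R 4.3.3) was run on log2(TPM + 1) of autosomal protein-coding genes above 2 TPM in 3 libraries of a fit, once for the 4 cultures (11541 genes) and once for the 5 stages (11880). Fold changes are on that scale and understate those of low genes. P-values were adjusted by Benjamini-Hochberg over all genes of a comparison, with 0.05 as the threshold. The script was tested on simulated data. No label says that the 3 replicates of a group were separate cultures, so p-values measure the spread between these samples. The members and gene lists were chosen with earlier results of these data known. Named genes were all 10 members, the 2 largest rises and falls of the wider list per comparison, and the 3 genes most like each member. Not every gene this rule names is reported here. Alternatives were a pseudocount of 0.1, no filter, median-of-ratios rescaling, only the compared groups, all 27 libraries, the replicate block, an eBayes trend, averaging near-identical replicates, leaving out each library, and Spearman's rho. No batch is labelled. The 8 single-cell and bisulfite samples were not analysed here.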

Additional observations from a re-analysis of the deposited data

Results flagged for a closer look

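A pair of genes differed between ESC-derived and embryo-derived 3D EpiSCs, cultures that share a medium and differ in origin and background, by the limma test of that difference itself, where 14.6% of all genes were lower and 6.55% higher in the ESC-derived one. The share of 2 in 10 lower is near that of all genes. Rnf2 was lower in the ESC-derived culture (log2 fold change -0.36, SE 0.096, adjusted p = 0.0261), with 3 of 3 libraries below the embryo-derived ones. Mtf2 was lower as well (-0.35, SE 0.097, adjusted p = 0.0283), again in 3 of 3 libraries. Each call was lost in 7 of 20 alternatives, with adjusted p up to 0.323 for Rnf2 and 0.315 for Mtf2. Both were lost on rescaling, on averaging near-identical replicates, and without the first or the second ESC-derived library or the second or the third embryo-derived library. Rnf2 was also lost with only the compared groups in the fit, and Mtf2 without the first embryo-derived library. The first and the second ESC-derived libraries, and the second and the third embryo-derived ones, were nearly identical (median absolute log2 difference 0.0610 and 0.0569).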

How the results depend on the processing

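Of the 25 calls of members between cultures, 13 held in all 20 alternatives and 12 were lost in at least 1. Of the 31 between stages, 24 held in all 22 and 7 were lost. Those 24 include the falls of Phf19 from E3.5 to E4.5 and from E3.5 to E7.5, which were built into the filter and are given no weight. Averaging near-identical replicates lowered the calls between cultures from 25 to 13, those of the wider list from 101 to 46, and the members past the F test over cultures from 8 to 4, with fewer samples in the fit. No pair of embryo libraries was near enough to be averaged. With a log2 fold change above 1 also asked for, the wider list had 5 calls between cultures, and 9 with a pseudocount of 0.1, where low genes weigh more. Rescaling turned Mtf2 from E6.5 to E7.5 to -0.028 and Rnf2 from E3.5 to E7.5 to -0.022. It moved the medians of all genes, which reached 0.31 and -0.21, to within 0.032 of 0. Leaving out each library gave 20 to 33 member calls between cultures and 28 to 33 between stages, 78 to 111 and 86 to 97 of the wider list, 6 to 9 members past the F test over cultures, and 4 to 10 calls of the wider list past the fold threshold between cultures.

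Leaving out 1 library, named here by group and number, ended these member calls, with the highest adjusted p over all alternatives in brackets: Rnf2 in 2D EpiSCs over EpiLCs (EpiLC 2, 2D 2 or 2D 3, 0.625), Eed in the same pair (2D 1, 0.0929), Suz12 in ESC-derived 3D EpiSCs over EpiLCs (EpiLC 3, ESC-derived 1 or 2, 0.0947) and over 2D EpiSCs (2D 3, ESC-derived 1 or 2, 0.143), Cbx7 in the latter pair (EpiLC 1, any 2D, ESC-derived 1 or 2, 0.331), Eed in embryo-derived 3D EpiSCs over EpiLCs (EpiLC 1 or 3, embryo-derived 2 or 3, 0.134), and Ezh1 (EpiLC 1, any 2D, embryo-derived 2 or 3, 0.183) and Jarid2 (2D 1 or 3, embryo-derived 2, 0.113) in embryo-derived 3D over 2D EpiSCs. The calls of Rnf2 and Mtf2 between the 3D cultures, given above, ended in this way too. Between stages, leaving out 1 library ended Ezh1 (E5.5 1 or 2, E6.5 1 or 3, 0.162) and Phf19 (E5.5 1 or 3, E6.5 1 or 2, 0.0943) from E5.5 to E6.5. It also ended Mtf2 from E6.5 to E7.5 (any of E3.5, E5.5 or E7.5, E6.5 1, 0.870) and Rnf2 from E3.5 to E7.5 (E3.5 1 or 3, E7.5 2 or 3, 0.853). Averaging also ended Ezh1 (adjusted p = 0.0716) and Mtf2 (adjusted p = 0.125) in ESC-derived 3D over 2D EpiSCs. Rescaling ended that call of Mtf2 as well (adjusted p = 0.200). The third ESC-derived library raised the spread: without it, 5 members in place of 2 were lower in the ESC-derived of the 3D cultures, beside 29.7% in place of 14.6% of all genes. The ESC-derived libraries left were nearly identical, and with such replicates averaged 0 members were lower in that comparison.

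The replicate numbers did not pair samples: deviations of samples with the same number correlated at -0.030 on average in culture and -0.017 in the embryo. With the replicate block, 26 member calls were made between cultures and 31 between stages. Eed in embryo-derived 3D EpiSCs against EpiLCs (adjusted p = 0.0519) and Ezh1 in embryo-derived 3D against 2D EpiSCs (adjusted p = 0.0502) were then lost, and 3 others gained.

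TPM carries no depth, so the precision of low genes such as Phf19 cannot be given, and 3 libraries a group limit all comparisons.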

Other observations

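A set of 5 genes of the wider Polycomb list lie on the X chromosome and were left out of the tests, so they are given as levels. Rbbp7, a histone-binding subunit of PRC2, was more abundant than any of the 10 members at each stage from E4.5 to E7.5, with means of 404, 283, 279 and 468 TPM, and in all 4 cultures, with 307 TPM in EpiLCs, 343 in 2D EpiSCs, 335 in ESC-derived and 421 in embryo-derived 3D EpiSCs. One embryo-derived library stood at 519 TPM and the others at 365 and 378. Kdm6a, a demethylase gene, had means between 28.8 and 48.6 TPM in the 9 groups. Bcor, of variant PRC1, went from 24.2 TPM at E3.5 to 64.0 at E5.5 and 32.9 at E7.5. Bcorl1 ranged from 7.14 TPM at E4.5 to 24.5 in 2D EpiSCs, and Scml2 was at 3.28 TPM or less in each group.

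Cbx8, another CBX gene of canonical PRC1, averaged 0.452 to 2.27 TPM over the 9 groups. At E4.5 the members Cbx2 and Cbx7 averaged 8.96 and 52.1 TPM.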
